A study of Mus musculus with 2 samples.

Results

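Leukocyte integrins and their ICAM ligands were examined as 10 genes, out of 19938 genes that had a probe set with exactly 1 gene symbol on the array. The 10 were listed by name with no measured threshold, though with earlier results of these data known, and each had 1 such probe set: the alpha chain genes Itgal, Itgam, Itgax, Itgae and Itga4, the beta chain genes Itgb1, Itgb2 and Itgb7, and the ligand genes Icam1 and Icam2. The cells were plasmacytoid dendritic cells (pDCs), which make large amounts of type I interferon, sorted from mouse bone marrow. One group was Runx2-/-, lacking the transcription factor Runx2, and the other was wild type. In both groups the marrow came from fetal liver chimeras, mice whose blood cells descend from transferred fetal liver, 2 months after reconstitution. Both sorts took cells that were negative for CD11b and positive for BST2 and B220, and CD11c was stained without being named in the gate. The labels do not give the strain, the age, the number of mice pooled or the blood cells left from the hosts. Each group had 1 Affymetrix Mouse Gene 1.0 ST array from 250 ng of total RNA. With 1 array per group, no difference below has a replicate check, an error or a p-value, and differences are described by size alone.

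Integrins are adhesion receptors made of 1 alpha and 1 beta chain, and both chains are needed for the pair to reach the cell surface. The beta-2 chain pairs with the alpha-L chain to form LFA-1, with alpha-M to form Mac-1 (CD11b with CD18) and with alpha-X to form CD11c with CD18. LFA-1 binds the ICAM proteins on endothelium and on other leukocytes. The alpha-4 chain pairs with beta-1 to bind VCAM-1 on marrow stroma and endothelium, and with beta-7 to bind MAdCAM-1 in gut venules, while alpha-E with beta-7 binds E-cadherin. Mouse pDCs carry CD11c at a lower density than conventional dendritic cells and lack CD11b, which is why CD11b serves to exclude other myeloid cells from a pDC sort.

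The sorted cells carried pDC transcripts on both arrays, and 14 of 14 pDC marker genes passed a brightness level. A gene passed it by reaching an array's median over named genes, 7.61 log2 units for wild type and 7.54 for Runx2-deficient cells, on either array. Of all 19938 named genes, 10337 passed it. So did 13 of 14 neutrophil marker genes and 4 of 4 platelet marker genes, so passing it does not set pDCs apart. The surface receptor gene Siglech was at 11436 units in wild-type and 12028 in Runx2-deficient cells. The summed intensity of the 14 was 83249 and 76407 units. Of the 14, 9 were below 0, beside 56.7% of all named genes. At 1.5-fold, 3 were lower, Ptprs (-1.16), Spib (-0.69) and Irf7 (-0.68), and 0 were higher, beside 2.22% and 1.73% of all named genes. Ptprs was the 1 at least 2-fold lower. In bulk samples, fewer cells of a type and less RNA per cell cannot be told apart. No probe set carries the name Runx2 alone, so Runx2 was not analysed here, and there is no check of the genotypes on the deleted gene.

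Markers of some other blood cells differed between the arrays. Neutrophil markers were at least 2-fold lower in 12 of 14 cases, beside 0.647% of all named genes. Their summed intensities were 18459 in wild-type and 2643 in Runx2-deficient cells. The neutrophil marker Csf3r went the other way, at 165 and 219 units (0.41). Erythroid markers were at least 2-fold lower in 4 of 6 (2128 and 685 units in sum). Platelet markers were lower by that much in 2 of 4 (6171 and 939) and monocyte markers in 2 of 6 (3340 and 1341). Ppbp alone gave 4838 and 156 units of the platelet sum, while Gp9 (-0.63) and Treml1 (-0.58) were not 2-fold lower. The 2 genes listed as monocyte markers were Ccr2 (1415 and 302 units) and Lyz2 (1440 and 480 units), which made up most of the monocyte sum. The arrays do not show which cells these transcripts came from. Csf1r went the other way, at 150 and 233 units (0.64), and the median over the 6 was -0.091. Cd14, Fcgr1 and Adgre1 were below the brightness level on both arrays. Conventional dendritic cells, which carry much CD11c, had 0 of 8 markers 1.5-fold apart in either direction, with sums of 12377 and 13379 units. Over all named genes 2.22% were lower and 1.73% higher by that much, so 0 of 8 is near those shares. Clec9a and Cd209a, known on mouse pDCs too, are among these 8, and the conventional dendritic cell genes Zbtb46, Xcr1 and Clec4a4 were below the brightness level on both arrays. At 2-fold, B cell markers had 0 of 6 lower and 1 higher, Cd22, with sums of 1152 and 1473 units. T cell markers had 0 of 5 and NK cell markers 0 of 6 at 2-fold, with sums of 720 and 729 and of 761 and 716 units. Over all named genes 0.647% were 2-fold lower and 0.436% higher, so counts of 0 in these short lists are near those shares. Itgam, abundant on neutrophils and monocytes, was dim on both arrays. The 3 measured Y-linked genes were at least 2-fold lower (1428 and 158 units in sum), so donor sex and genotype cannot be told apart for any gene here. Whether RNA of other blood cells, such as neutrophils, erythroid cells, platelets or monocytes, has a part in the integrin differences was not tested.

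The integrin chain genes in the set were all lower on the Runx2-deficient array, and both ICAM genes were higher. Itgax stood furthest from 0, with a log2 difference (Runx2-deficient minus wild-type) of -2.43. Itgb7 (-0.87), Itgal (-0.83) and Itga4 (-0.59) followed. Itgb1 and Itgb2 differed by -0.47 and -0.46, and Itgam and Itgae by -0.29 and -0.14, while Icam1 and Icam2 differed by 0.10 and 0.52. Of the 10 genes, 8 were below 0, beside 56.7% of all 19938 named genes. At a 2-fold threshold, 1 of 10 was lower (Itgax), where 0.647% of all named genes were lower, and 0 were higher, where 0.436% were. At 1.5-fold, 4 were lower (Itgax, Itgb7, Itgal and Itga4), where 2.22% of all named genes were lower, and 0 were higher, where 1.73% were. All named genes include dim ones, while 8 of the 10 members passed the brightness level. Of the 10337 genes past it, 121 were at least 2-fold lower and 82 higher. There 3.85% had a difference as low as that of Itga4 or lower, so the shares are larger among those genes. The median of the 10 differences was -0.46, beside -0.033 over all named genes. Their range ran from -2.43 to 0.52.

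**Figure D1:**
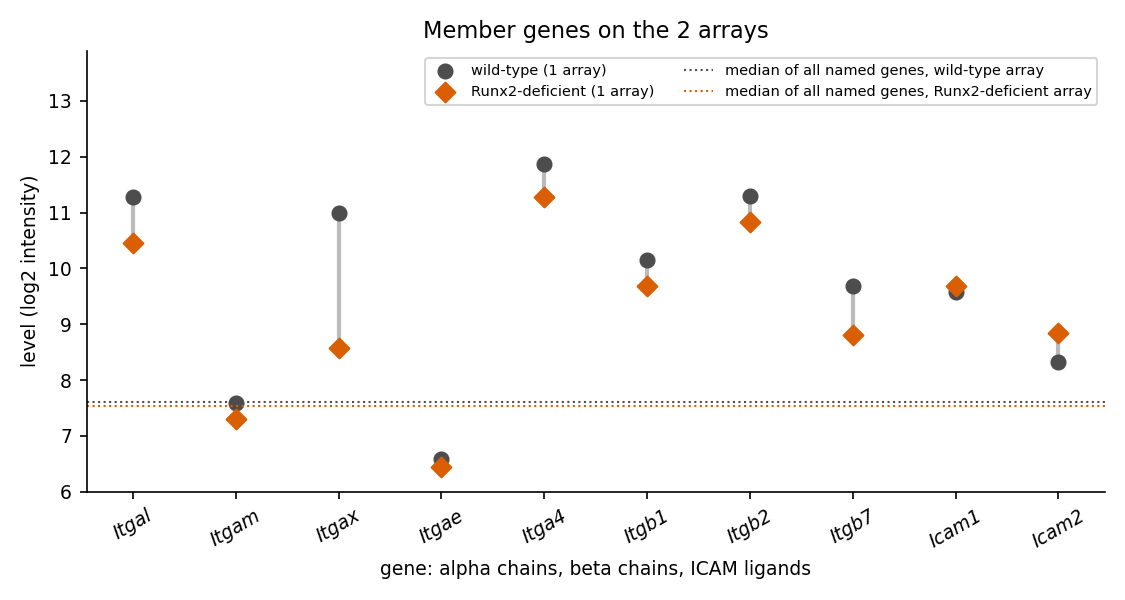
Levels of the 10 genes (log2 intensity) on the wild-type array (grey circles) and the Runx2-deficient array (orange diamonds), 1 array per group, with dotted lines at each array's median over named genes. The gap is widest for Itgax, which ends at 8.57 on the Runx2-deficient array, and the orange marker lies above the grey one for Icam1 and Icam2 alone.

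Itgax encodes the alpha-X chain, CD11c. It was at 2047 intensity units in wild-type and 379 in Runx2-deficient cells, 5.39-fold lower in the latter. Only 16 of the 10337 named genes past the brightness level, Itgax included, had a difference this low or lower. Itgax was above that level on both arrays, at 8.57 log2 units on the dimmer one. On the same arrays the median difference was -1.95 over neutrophil markers, -1.85 over erythroid, -0.95 over platelet and -0.091 over monocyte markers. It was 0.056 over conventional dendritic cell markers, of which 0 of 8 were 1.5-fold apart. Beside this, 2.22% of all named genes were lower and 1.73% higher by that much. Of these 8, Zbtb46, Xcr1 and Clec4a4 were below the brightness level on both arrays, and Clec9a and Cd209a are known on mouse pDCs too. The list can therefore show little about conventional dendritic cells, and their part in the Itgax difference was not tested.

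The promoter windows of the 3 genes lowest among those with a RefSeq window are shown because Runx2 is a DNA-binding factor. The core letters of the Runx motif were searched as TGTGGT, or ACCACA when read on the opposite strand, and are in capitals. Each window runs from 150 bases before the RefSeq start site to 30 bases after it in build GRCm38.p6, in the 5′ to 3′ direction of the gene. The Itgax window is chr7:128129400-128129579 on the plus strand, that of Itga4 is chr2:79255276-79255455 on the plus strand and that of Itgb7 is chr15:102231906-102232085 on the minus strand.
Itgax: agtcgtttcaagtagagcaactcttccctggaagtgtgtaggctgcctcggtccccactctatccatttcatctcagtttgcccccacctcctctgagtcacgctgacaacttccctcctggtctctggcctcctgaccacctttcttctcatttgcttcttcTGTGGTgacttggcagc
Itga4: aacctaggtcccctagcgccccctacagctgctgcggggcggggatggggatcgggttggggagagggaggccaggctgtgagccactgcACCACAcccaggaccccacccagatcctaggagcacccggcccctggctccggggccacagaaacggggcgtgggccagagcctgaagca
Itgb7: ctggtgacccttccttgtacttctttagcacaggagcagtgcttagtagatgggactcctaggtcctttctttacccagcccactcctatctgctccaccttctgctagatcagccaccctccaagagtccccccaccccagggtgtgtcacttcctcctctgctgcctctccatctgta

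In Itgax the letters lie just inside the transcribed part, at bases 14 to 19 counted from the start site as base 1. In Itga4 they lie upstream, on the opposite strand, from 60 to 55 bases before the start site. Over full windows of 300 bases (250 before the start site and 50 from it on), the 6-letter core was present in 2 of the 6 members with a window. It was present in 16.8% of all 32851 windows in the table. The windows of Itgam, Itgb1, Itgb7 and Icam1 did not hold these letters. A second form, TGCGGT (with ACCGCA as its reverse), was in 0 of the 6 and in 6.45% of all windows. The letters GGAAGT, found in many sites for Ets factors such as PU.1, were searched with their reverse, ACTTCC. They were in 2 of the 6, Itgax at 2 places and Itgb7 at 1, and in 23.8% of all windows, and they overlapped no Runx core there. These matches describe letters in these windows, and the arrays did not measure binding there.

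**Figure D2:**
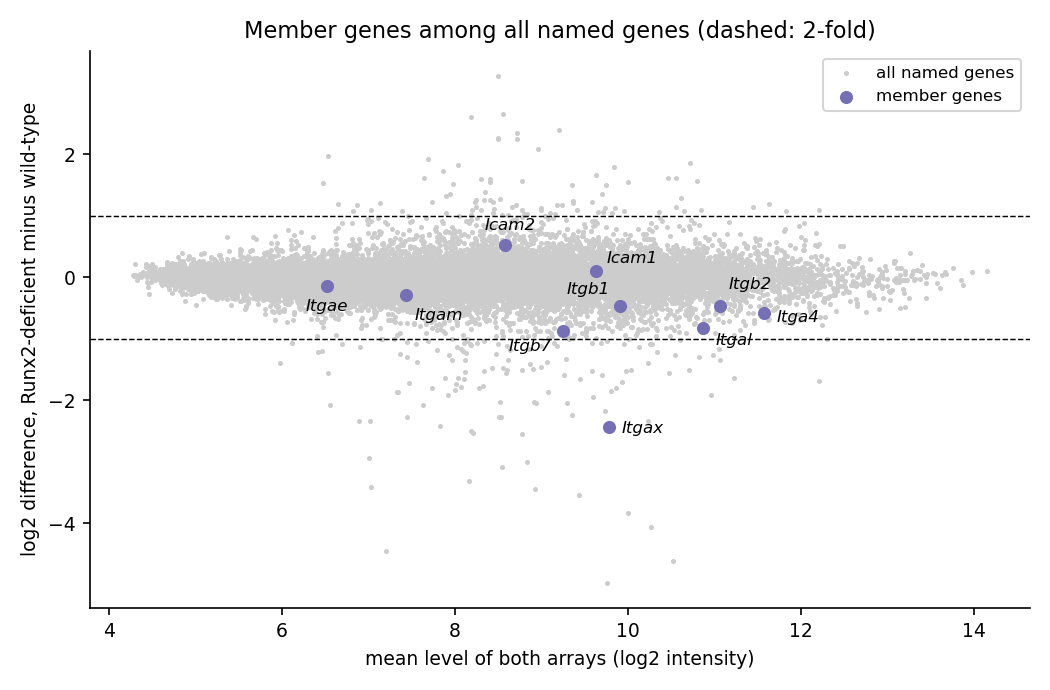
Log2 difference (Runx2-deficient minus wild-type) against the mean log2 level of both arrays, with all 19938 named genes in grey and the 10 genes in purple; dashed lines mark 2-fold. Itgax lies alone of the 10 below the lower dashed line, Itgb7 and Itgal lie just above it at -0.87 and -0.83, and Icam1 and Icam2 lie above 0.

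Itgax lies on chromosome 7 in a run of related integrin genes, with Itgam as the nearest measured gene on one side and Itgad on the other. Itgam encodes the alpha-M chain, CD11b, the marker used to exclude cells from this sort. It was at 192 intensity units in wild-type and 157 in Runx2-deficient cells, below the brightness level on both, so its difference of -0.29 describes a dim signal in cells sorted as CD11b-negative. Itgad, which encodes the alpha-D chain of a macrophage integrin, was at 294 and 253 units, a difference of -0.22. A second, dimmer probe set for Itgad was at 122 and 96.3 units, a difference of -0.34. Of the 10 measured genes nearest to Itgax in chromosome order, 5 on each side, 0 were 1.5-fold apart in either direction. Among all named genes 2.22% were lower and 1.73% higher by that much. Their differences ran from -0.52 (Prss8) to 0.17 (Tgfb1i1), with a median of -0.15. The others were Prss36 (-0.12), the inflammasome adaptor gene Pycard (0.020), Trim72 (-0.026), Itgam, Itgad, the pDC-expressed gene Cox6a2 (-0.048), 9130023H24Rik (-0.33) and Armc5 (-0.17). Itgal lies on the same chromosome, with 37 measured genes between it and Itgax.

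**Figure D3:**
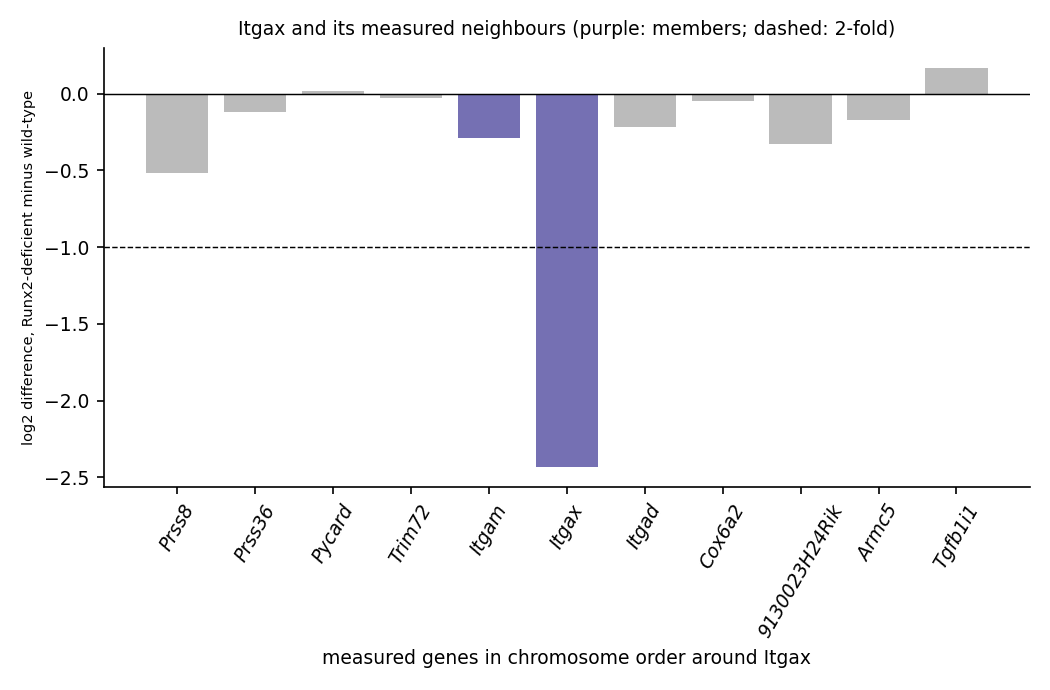
Log2 difference (Runx2-deficient minus wild-type) of Itgax and of the 5 measured genes on either side of it, in chromosome order, with members in purple and a dashed line at 2-fold. The Itgax bar reaches -2.43, and the other 10 bars lie between -0.52 and 0.17.

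The LFA-1 chain genes were both lower on the Runx2-deficient array. Itgal, the alpha-L chain gene, was at 2493 units in wild-type and 1402 in Runx2-deficient cells, 1.78-fold lower. Itgb2, the beta-2 chain shared by all CD18 integrins, was at 2506 and 1823 units, 1.37-fold lower. The alpha chain difference minus that of beta-2, in which any array-wide scaling cancels, was -0.37 for Itgal and -1.97 for Itgax. For Itgam and Itgad it was 0.17 and 0.24. Itgam was below the brightness level on both arrays and Itgad, at 294 and 253 units, was not far above it. Their differences may be compressed, so these 2 values cannot be set beside those of the bright genes. Itgal and Itgax, the brighter alpha chain genes that share beta-2, differed by unequal amounts.

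The alpha-4 and beta-7 genes were lower as well. Itga4 was at 3739 units in wild-type and 2490 in Runx2-deficient cells, a difference of -0.59 at the edge of the 1.5-fold threshold. Subtracting the median difference of all named genes took it to -0.55 and a loess correction to -0.58, both short of that threshold. Its partner Itgb7 was at 820 and 450 units, 1.82-fold lower, and its other partner Itgb1 at 1134 and 819 units, 1.38-fold lower. The Itga4 difference minus that of Itgb1 was -0.12, and minus that of Itgb7 it was 0.28. For Itgae minus Itgb7 the value was 0.73. Itgae, the alpha-E chain gene that marks intraepithelial lymphocytes and some conventional dendritic cells, was at 96.2 and 87.4 units. Both values lay below the brightness level, so the alpha-E chain gave only a dim signal. Among genes past the brightness level, 1.61% had a difference as low as that of Itgb7 or lower, 1.81% as low as Itgal, 3.85% as low as Itga4, 6.48% as low as Itgb1 and 6.92% as low as Itgb2.

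The 2 ICAM genes were higher on the Runx2-deficient array, Icam1 only slightly. Icam2, a ligand of LFA-1 found on resting endothelium, platelets and leukocytes, was at 319 units in wild-type and 459 in Runx2-deficient cells, 1.44-fold higher. Among genes past the brightness level, 3.85% had a difference this high or higher. Icam1, a ligand of LFA-1 and Mac-1 that inflammatory signals induce, was at 766 and 823 units, 1.07-fold higher, and 32.5% of those genes were as high or higher. Among 11 measured ligand genes of leukocyte integrins, Icam1 and Icam2 included, 5 were below 0 and 6 above. Beside this, 56.7% of all named genes were below 0. The median of the 11 was 0.0066. At 1.5-fold, 1 was lower and 0 higher, beside 2.22% and 1.73% of all named genes. That 1 was Fn1, the fibronectin gene, at 315 and 171 units (-0.88). Vcam1, the ligand of alpha-4 beta-1, was at 320 and 450 units (0.49). Cdh1, which encodes E-cadherin, the ligand of alpha-E beta-7, was at 1566 and 1137 units (-0.46). The remaining 6, Madcam1, Icam4, Icam5, F11r, Jam2 and Jam3, were below the brightness level on both arrays.

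Across the integrin family, all 4 chain genes at least 1.5-fold lower were among those chosen here. The 19 other integrin chain genes had a median of -0.052, with 11 below 0, beside 56.7% of all named genes. Of these, 12 were below the brightness level on both arrays. Of the 19, 0 were 1.5-fold apart, where 2.22% of all named genes were lower and 1.73% higher. The 8 chosen chains had a median of -0.53, with 8 below 0, beside the same 56.7%. Dim probe sets can have compressed differences in this kind of data, and 2 of the 8 were dim. The 8 were also chosen with earlier results known, so the contrast between the groups is a description only. Of the other chains past the brightness level, Itga2b, the platelet alpha-IIb gene, was at 282 units in wild-type and 194 in Runx2-deficient cells (-0.54). Whether platelet RNA has a part in that difference was not tested. Itgb3, whose product pairs with alpha-IIb and alpha-V, was at 886 and 1157 units (0.38). Itgb2l, a beta-2-like gene, differed by -0.30. Itgav (0.011), Itga5 (0.079), which encodes the fibronectin receptor chain, and Itgb4 (0.0089) were nearly level. The dim alpha chains Itga11, Itga1, Itga8, Itga7 and Itga2 differed by -0.43, -0.40, -0.35, -0.29 and -0.22. Itga9, Itga3, Itga6 and Itga10 lay between -0.093 and 0.063. The dim beta chains Itgb6, Itgb8 and Itgb5 differed by -0.045, 0.051 and 0.088.

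**Figure D4:**
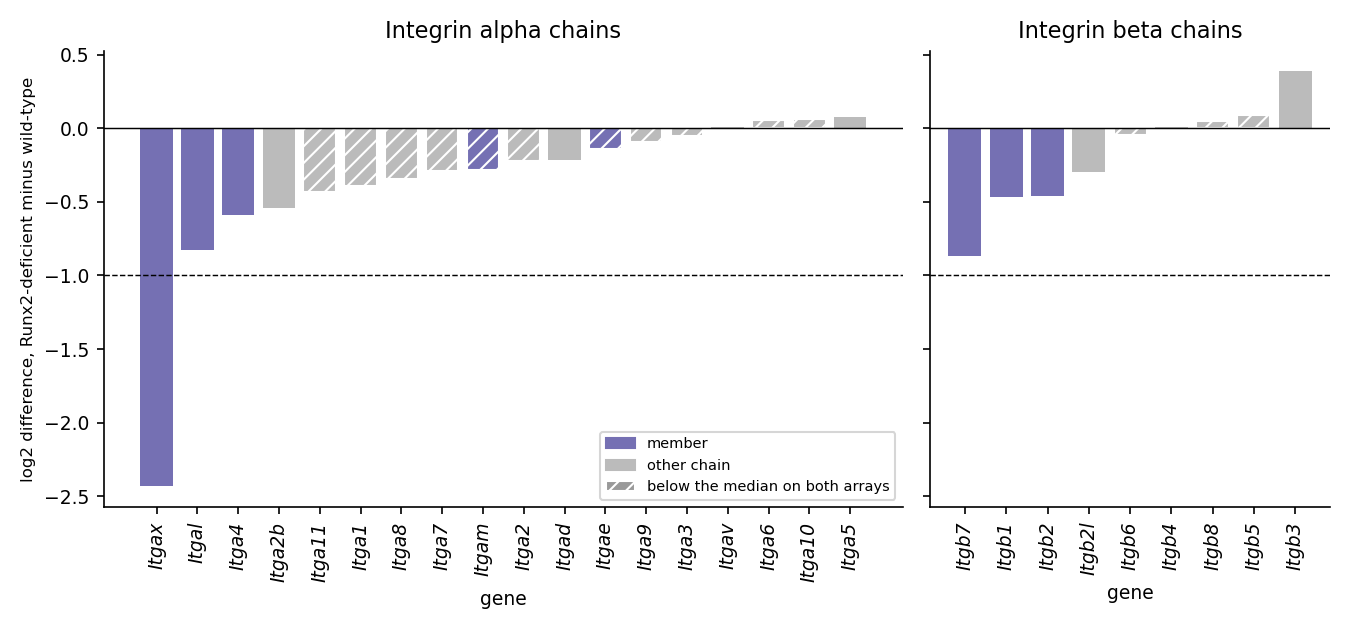
Log2 difference (Runx2-deficient minus wild-type) of all 18 integrin alpha chain genes and all 9 beta chain genes, sorted by value; members are purple, other chains grey, and hatched bars are genes below the brightness level on both arrays. Itgax alone passes the dashed 2-fold line, and Itgb3 is the highest bar at 0.38.

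Integrins bind only weakly until signals inside the cell switch them on: the small GTPase Rap1 and its partners recruit talin and kindlin-3 to the beta chain tail. Of 12 genes of this inside-out route, 0 were 1.5-fold apart, where 2.22% of all named genes were lower and 1.73% higher. Their median was -0.057. Tln1, which encodes talin, was at 2061 units in wild-type and 1663 in Runx2-deficient cells (-0.31). Apbb1ip, the Rap1 adaptor RIAM, differed by -0.28, and Fermt3, which encodes kindlin-3, by -0.20. Rap1a (0.12), the adaptor gene Skap2 (0.11) and the Rap1 effector gene Rassf5 (0.070) were at the upper end. A count of 0 in 12 is near those shares. The 12 genes ranged from -0.31 to 0.12, closer to 0 than Itgal and Itgax. That range also held the members Itgam (-0.29), Itgae (-0.14) and Icam1 (0.10).

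Among 7 genes whose products hold integrins inactive, the median was -0.30. At 1.5-fold, 1 was lower and 0 were higher, beside 2.22% and 1.73% of all named genes. Flna, the actin cross-linker filamin A that competes with talin for the beta tail, was at 1132 units in wild-type and 693 in Runx2-deficient cells (-0.71). Rap1gap2 (-0.32), Cytip (-0.30), Sipa1 (-0.23) and Sharpin (-0.074) lay below 0, as did Dok1 (-0.35), which was dim on both arrays. Itgb1bp1, whose product ICAP-1 binds the beta-1 tail, was the exception, at 497 and 648 units (0.38).

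Of 19 measured genes that act downstream of a bound integrin, 16 were below 0, beside 56.7% of all named genes, and the median was -0.26. At 1.5-fold, 1 was lower and 1 higher, beside 2.22% and 1.73% of all named genes. Fyn, a Src-family kinase, was at 5967 units in wild-type and 3840 in Runx2-deficient cells (-0.64). Tyrobp, the adaptor DAP12 that links integrins and other receptors to Syk, differed by -0.57, and the focal adhesion gene Zyx by -0.54. The exchange factor gene Vav3 was at 301 and 459 units (0.61). Ptk2b, which encodes the adhesion kinase PYK2, differed by 0.42, and the phospholipase gene Plcg2 by 0.041. Of 9 further leukocyte adhesion genes, 0 were 1.5-fold lower and 1 was higher, beside the same 2.22% and 1.73%, and the median was -0.075. Cd99l2, which helps leukocytes cross vessel walls, was the higher one, at 160 and 243 units (0.60). Selplg, the selectin ligand PSGL-1, differed by -0.088, Cd44 by 0.056, Pecam1 by 0.22, Spn by -0.24, Cd47 by -0.075 and Alcam by -0.089. Esam (-0.12) and Cd226 (0.11) were dim on both arrays.

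**Figure D5:**
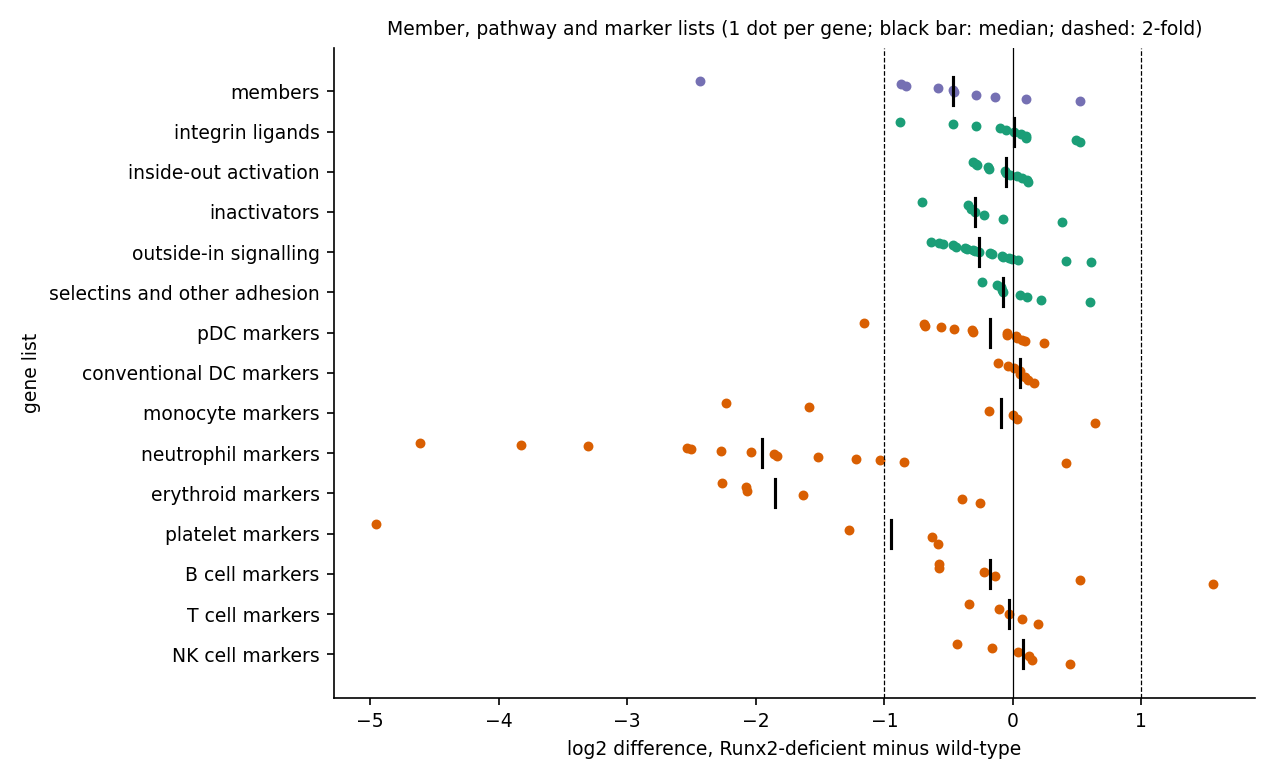
Log2 difference (Runx2-deficient minus wild-type) of each gene in the member list (purple), the adhesion pathway lists (green) and the cell type marker lists (orange), with a black bar at each list's median and dashed lines at 2-fold. Neutrophil and erythroid medians lie at -1.95 and -1.85, the median of the 10 members at -0.46 and that of conventional dendritic cell markers at 0.056.

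Genes with the most similar pair of values were found by the straight-line distance over both log2 levels, among named genes past the brightness level. With only 2 arrays this likeness rests on 2 values per gene. Nearest to Itgax were Bex6 (1813 units in wild-type and 399 in Runx2-deficient cells), Plxdc2, Cd244a, the carbonic anhydrase gene Car1 and the dystrophin-complex gene Sntb1, at distances from 0.19 to 0.56. Nearest to Itgal were Tom1, Tsc22d1, Scap, Tns1 and Ech1, with differences from -0.74 to -0.60. Nearest to Itgb7 were Tmem106c, Arhgap27, Dusp5, Hdgf and Med16, with differences from -0.96 to -0.81. Nearest to Itga4 were Grina, Scand1, Chmp4b, Ppif and the cyclin D1 gene Ccnd1, with differences from -0.70 to -0.46.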

How the data were processed

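The deposited values are linear intensities, 1 per probe set and array, from 15.3 to 20364, with array medians of 183 (wild-type) and 182 (Runx2-deficient) over 35556 probe sets. The authors ran RMA, per the submitters' processing notes, a method whose usual output is log2. The software, its version, the build and the arrays normalised together were not given in the sources used here. Differences of dim probe sets can be compressed by RMA, and there is no detection call.

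Differences are log2 of the Runx2-deficient intensity minus log2 of the wild-type one. Of the probe sets, 21789 have 1 gene symbol in the platform annotation and were named, 1621 have several and 12146 none; for 999 of 19938 genes the probe set with the highest mean log2 was used. With 1 array per group there is no test, and the number of arrays limits the precision; called means at least 2-fold or 1.5-fold apart.

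Named genes are the members, all other integrin chains, up to 3 genes at each end of a pathway list past the brightness level (all genes of short lists), the 5 nearest in both levels and the 5 chromosome neighbours on each side, from RefSeq gene order (GRCm38.p6); predicted and antigen receptor genes were skipped. Members and lists were chosen with earlier results of these data known; the Y-linked list and marker genes singled out outside this rule were added after their values were seen. Promoter sequences are RefSeq's (GRCm38.p6), matched by symbol for 6 of 10 members. Alternatives were median centring, loess on the mean level (span 0.3), averaging a gene's probe sets, brightness filters and a 1.5-fold threshold. The calls and corrections were tested on simulated data. Tools were matplotlib 3.10.9, statsmodels 0.14.6, pandas 2.3.3 and numpy 2.4.6 under Python 3.11.15.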

Additional observations from a re-analysis of the deposited data

Results flagged for a closer look

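Probe sets that the annotation gives to Itgam together with another gene gave signal outside the comparison. There are 3, each annotated to Rpl35, a ribosomal protein gene, and Itgam. They were at 5694, 5291 and 5677 intensity units on the wild-type array and at 6481, 5988 and 6462 on the Runx2-deficient array. Each was thus above its wild-type level, with log2 differences of 0.19, 0.18 and 0.19. The probe set that names Itgam alone was at 192 and 157 units, a difference of -0.29. Which of the 2 genes the shared probe sets measure was not tested, and they were not used for Itgam.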

How the results depend on the processing

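Under a loess correction none of the 10 members' differences changed sign, and each moved by less than 0.1 log2 units, a tolerance set in place of a replicate spread. Median centring moves every gene by the same amount, and averaging probe sets cannot move these genes, which have 1 each, so neither bears on their stability. Itgax ranged from -2.45 (loess) to -2.40 (median centring), and Itga4 missed the 1.5-fold threshold under median centring (-0.55) and loess (-0.58). The median of the 10 genes ranged from -0.53, over the members past either brightness filter, to -0.43 under median centring. The count of members at least 2-fold lower was 1 under these settings and 4 at a 1.5-fold threshold, where the counts over all named genes went from 129 to 442 lower and from 87 to 345 higher. The members below 0 numbered 8, and 6 where the filters left out Itgam and Itgae. Under loess, each gene list median moved by less than that tolerance. No paired analysis was possible because each genotype has 1 array. Dim signals, such as those of Itgam and Itgae, limit what their differences can show.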
